A study of Mus musculus with 2 samples.

Results

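The axoneme, the motor of the sperm tail, was followed here through its dynein, CFAP (cilia and flagella associated protein), radial spoke and nexin-dynein regulatory complex genes. Members were chosen by symbol alone: every gene in the WT or KO table whose symbol starts with Dnah, Dnaic, Dnai, Dnal, Cfap, Rsph or Drc and goes on with a digit or, for Dnal, an i, without transcripts whose symbol ends in os. This gave 57 of 36547 genes, namely 15 dynein heavy chains, 5 dynein intermediate and light chains, 26 CFAP genes, 8 radial spoke genes and 3 genes of the nexin-dynein regulatory complex. All 57 were listed in both tables and all were annotated as protein-coding genes, spread over 16 chromosomes. Another annotated gene overlaps 37 of them.

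The axoneme is a ring of microtubule doublets around a central pair. Outer and inner dynein arms on each doublet walk along the neighbouring doublet and bend the tail, radial spokes signal between the central pair and the arms, and the nexin-dynein regulatory complex links the doublets and limits their sliding. Its parts are transcribed in meiotic and early postmeiotic germ cells, before chromatin compaction silences the spermatid nucleus, and the tail is assembled in the spermatid.

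The samples were 1 testis library of WT mice and 1 of Alkbh5-/- mice (KO), both C57BL/6 and 12 weeks old, the KO mice having come from crosses of heterozygotes and lacking ALKBH5, an RNA m6A demethylase, in every cell. The introduction of the study speaks of 1 mouse per genotype and its methods of 3, so a library may pool animals. With 1 library per genotype no test was possible, no SD can be given, and no difference between WT and KO below has a replicate check. The WT library held 5756 barcodes with 80283221 unique molecular identifiers (UMIs), and the KO library 7012 barcodes with 82056760 UMIs. Alkbh5 itself had 607 UMIs in WT and 5 in KO. The members held 430644 WT and 363797 KO UMIs, or 0.536% and 0.443% of all UMIs. Between the libraries 45 barcodes were shared.

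Cells of both libraries were clustered together with the members taken out of the genes used for clustering, and clusters were named from markers of each stage. The 12 germ cell clusters ran from spermatogonia-like and early spermatocyte-like cells through late spermatocyte-like, early-stage, mid-stage and late-stage round spermatid-like cells to elongating spermatid-like or sperm-like cells, and where a stage had more than 1 cluster they are numbered in order. They held 5588 WT and 5263 KO cells. Leydig-like, Sertoli-like, macrophage-like and endothelial-like clusters made up the rest. The names were rebuilt here, which can itself make values differ from those of the study. Levels are UMIs per 1000000 UMIs of a cluster (CPM). UMIs count captured RNA molecules without regard to transcript length, but how well the RNA of each gene was captured is not known here. A level is therefore compared between clusters and libraries, and UMI counts of different genes are set side by side only as a rough guide. Intervals are exact 95% Poisson intervals that cover counting error only, and they do not cover differences between mice. A gene was called higher or lower in KO when it had at least 100 UMIs in both libraries together and its CPM differed at least 1.5-fold (0.585 on the log2 scale). This is a rule of size and says nothing of significance. In bulk sums of a cluster, fewer cells of one kind and less RNA per cell cannot be told apart.

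Summed over all members, the level rose during meiosis, stayed high in early round spermatids and was low again before elongation. In WT it was 1472 CPM in spermatogonia-like cells, 2476 in early spermatocyte-like cells, 9807 and 11360 in the late spermatocyte-like clusters, and 10660 and 9236 in the early-stage round spermatid-like clusters. The mid-stage clusters were at 7058 and 4749 CPM, the late-stage cluster at 1821, and the 3 elongating clusters at 1266, 1111 and 1179. The KO library followed the same course, with 992.1 and 1541 CPM in the first pair of clusters, 9226 and 11160 in late spermatocyte-like cells, 10680 and 9490 in early-stage, 7150 and 4213 in mid-stage and 1805 in late-stage round spermatid-like cells, and 1299, 1065 and 1226 in the elongating clusters. Over all germ cells the sums were 5452 CPM in WT and 5301 in KO, a log2 ratio of -0.04 (-0.05 to -0.03). Only the spermatogonia-like and early spermatocyte-like clusters, the second with 34 WT and 119 KO cells, had sums apart by a log2 ratio beyond 0.2 among the germ cell clusters.

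**Figure D1:**
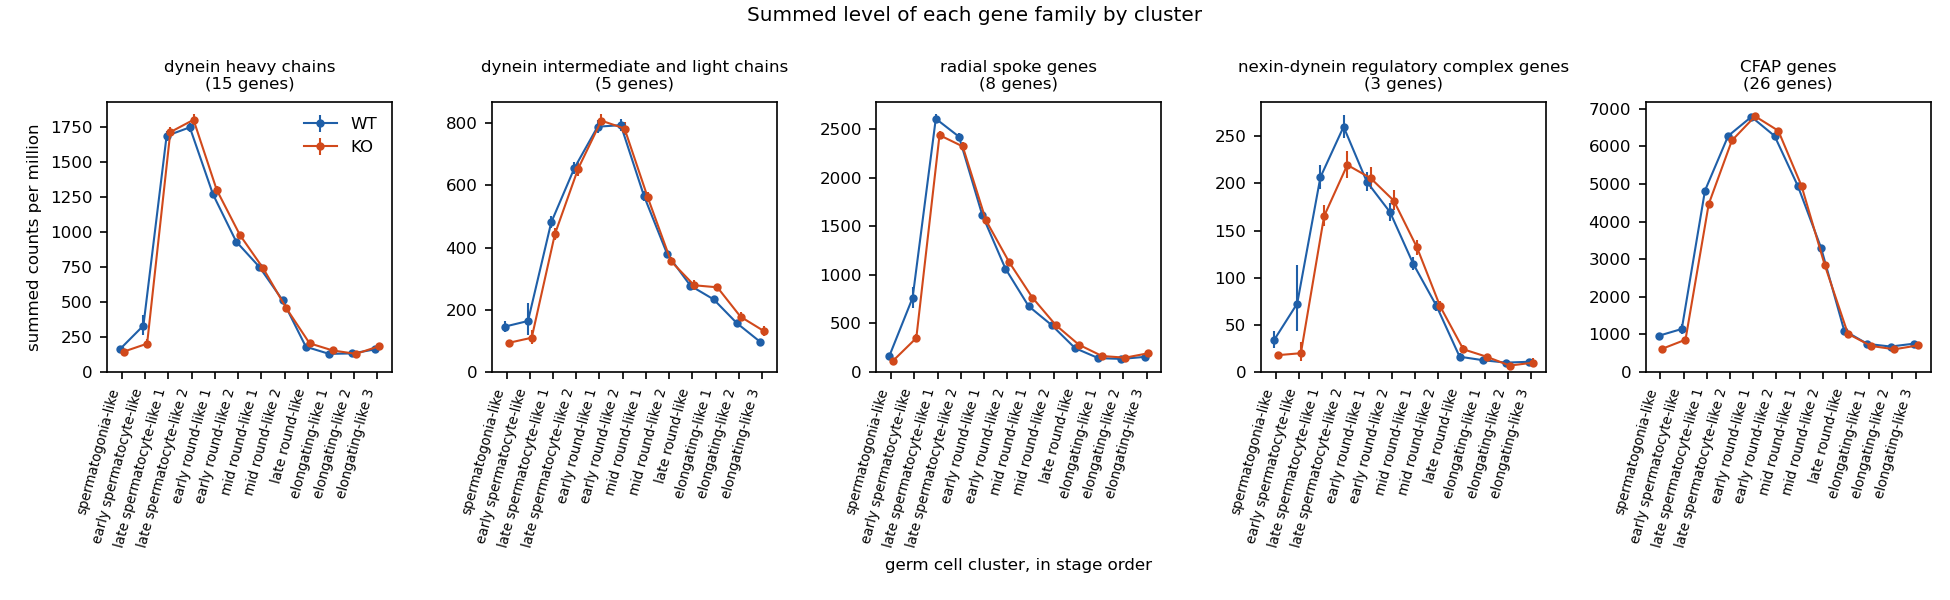
Summed level of each gene family in CPM (vertical axis, one panel per family) across the 12 germ cell clusters in stage order (horizontal axis), with 1 line for the WT and 1 for the KO library and exact 95% Poisson intervals as bars. In both, the sum over CFAP genes stood highest in the first early-stage round spermatid-like cluster (6784 CPM in WT and 6799 in KO) and that over dynein heavy chains in the second late spermatocyte-like cluster (1751 and 1805). Abundant members weigh most in these sums, and Cfap36 alone gave 2150 CPM in WT and 2085 in KO of the CFAP values.

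The stage of the highest level split the members into a meiotic and a postmeiotic set. In WT, 55 members had at least 100 UMIs in germ cells, all but Dnah11 and Rsph4a. The clusters of a stage were summed, and the 3 round stages were each set against the other stages on their own. By this rule 29 members were highest in late spermatocyte-like cells, 25 in one of the round stages, 1 in elongating cells and 0 in spermatogonia-like or early spermatocyte-like cells. Among heavy chains 10 of 14 were highest in late spermatocyte-like cells, and among CFAP genes 10 of 26, with the other 16 highest in round spermatid-like cells. Intermediate and light chains were divided 2 and 3, the radial spoke genes 4 and 2 with 1 in elongating cells, and all 3 regulatory complex genes were highest in late spermatocyte-like cells. The KO library gave 26, 28 and 1, and 52 of 55 members kept their class. The split depends on keeping the round stages apart. With all round clusters summed into 1 class, 38 members were highest in late spermatocyte-like cells in WT and 16 in round spermatid-like cells (37 and 17 in KO), among them 11 of 14 heavy chains and 16 of 26 CFAP genes in late spermatocyte-like cells in each library. Below, meiotic and postmeiotic stand for the rule with single stages. In 25 of 55 members in WT and in 21 in KO the interval of the highest cluster lay apart from that of the next, so the exact cluster of the peak is less certain than the class.

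**Figure D2:**
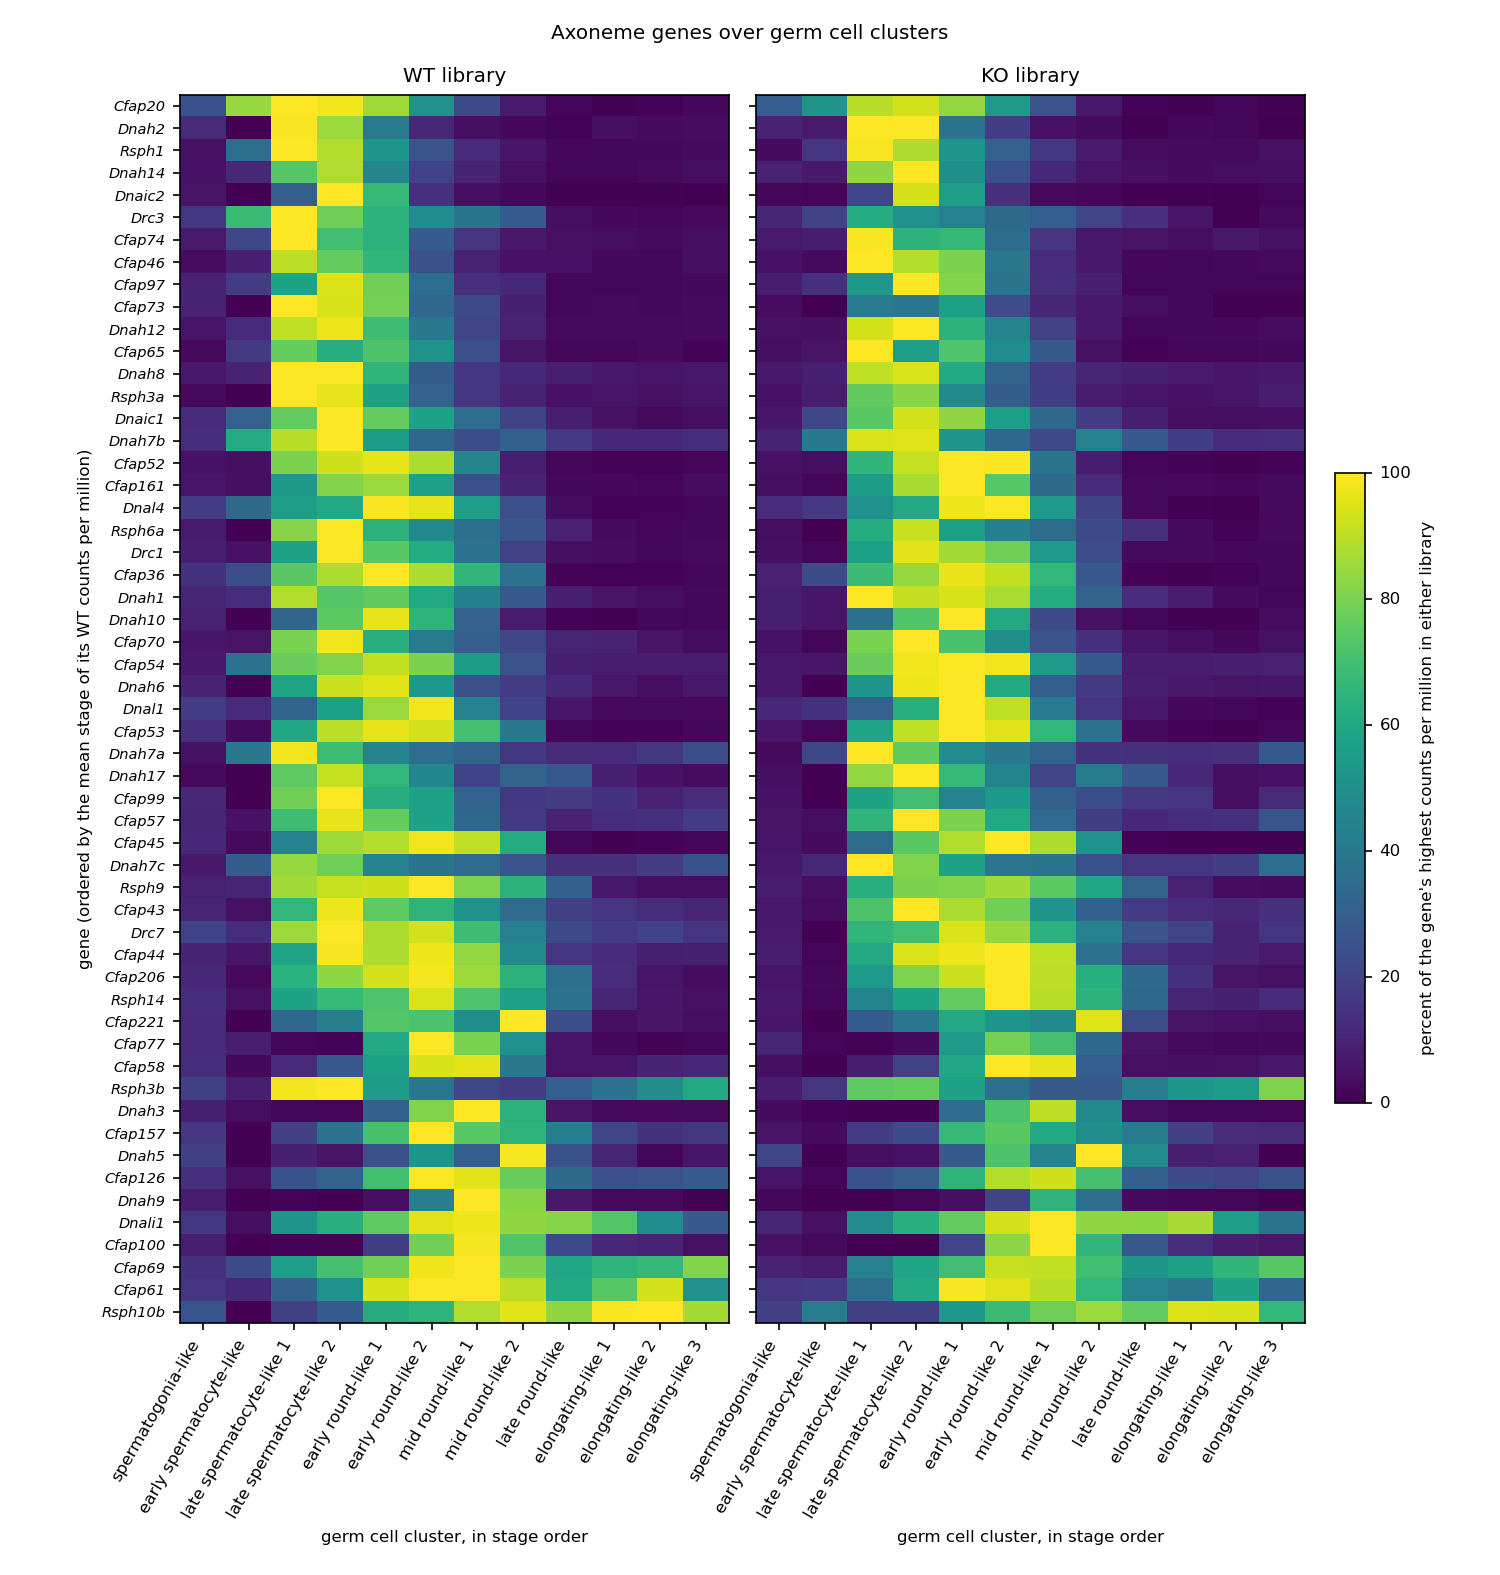
Level of each member with at least 100 UMIs in each germ cell cluster as a percentage of its highest level in either library (colour), with members in rows, ordered by the mean stage of their WT levels, and clusters in stage order in columns, for WT and KO side by side. The upper rows were mostly high in late spermatocyte-like cells and the lower ones in round spermatid-like cells, and Rsph10b, in the last row, in the elongating clusters.

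The 3 members whose class differed between the libraries were Dnah6, Drc1 and Drc7. Dnah6, a heavy chain of the inner arms, was at 61.3 CPM in the second late spermatocyte-like cluster and 62.9 in the first early-stage round cluster in WT, and at 64.6 and 66.2 in KO. Drc7, a regulatory complex subunit, was at 28.9 and 25.3 CPM in the same clusters in WT and at 20.2 and 27.2 in KO. Drc1, a scaffold subunit of that complex, was highest in the second late spermatocyte-like cluster in both libraries (160.7 CPM in WT, 154.3 in KO). In the first early-stage round cluster it was at 118.7 CPM in WT and 139.1 in KO.

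Promoter letters were read for the members because meiotic and ciliary genes are known targets of RFX factors, which bind the X-box, a palindrome-like element of which GTTGCC is a half-site. The start site windows of RefSeq on GRCm38.p6, 250 bases before to 50 after a start, covered 47 members. GTTGCC, on either strand and so read as GTTGCC or GGCAAC, was in the window of 14 of 47 members (29.8%) and of 3821 of 27025 genes (14.1%). It was in 9 of 25 members that were highest in late spermatocyte-like cells and in 5 of 21 highest in round spermatid-like cells. By family it was in 7 of 20 CFAP genes, 4 of 14 heavy chains, and 1 each of the intermediate and light chains, the radial spoke genes and the regulatory complex genes. The full cyclic AMP response element TGACGTCA was in 1 of 47 members (2.13%), Dnah6, and in 549 genes (2.03%). These counts had no test and a match of letters is no binding site.

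The following stretches of 30 bases show the half-site (capitals) and its surroundings in 3 members of the meiotic set, Dnaic2, Drc1 and Rsph3b, and in 3 of the postmeiotic set, Cfap44, Cfap58 and Cfap100, each read 5′ to 3′ along the gene's own strand. Dnaic2 lies at chr11:114727381-114727410 on the plus strand, Drc1 at chr5:30281370-30281399 on plus, Rsph3b at chr17:6948323-6948352 on minus, Cfap44 at chr16:44394768-44394797 on plus, Cfap58 at chr19:47937641-47937670 on plus and Cfap100 at chr6:90428454-90428483 on minus.
Dnaic2: ccagggttgctaGGCAACtggtaaactccg
Drc1: ctgctttcccttGGCAACggcttgttccta
Rsph3b: ctcgggttgctcGGCAACcgatgggggcgc
Cfap44: ggacgttgctatGGCAACcgcagtaaacgg
Cfap58: gggggcgtggcgGTTGCCaggcgaccgaag
Cfap100: cctgtgagaataGTTGCCttggcgtcgcaa

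The same half-site stood in the windows of the 3 Dnah7 copies on chromosome 1, inner arm heavy chains that share much of their sequence. Dnah7a lies at chr1:53706967-53706996 on the minus strand, Dnah7b at chr1:46066678-46066707 on plus and Dnah7c at chr1:46425287-46425316 on plus. All 3 were highest in late spermatocyte-like cells in both libraries. How reads of so similar genes were divided between them is not given in the sources used here, so their separate levels are uncertain.
Dnah7a: tcgctcctcacaGTTGCCtgccaccctctg
Dnah7b: tacaggagcacaGTTGCCacccacccttaa
Dnah7c: tcactcctcagaGTTGCCttccaccctctg

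Among the outer arm heavy chains, the sperm forms and the forms of airway cilia behaved apart. Dnah8, a sperm outer arm heavy chain, had the most UMIs of the family (14112 in WT and 11437 in KO germ cells). It was highest in the second late spermatocyte-like cluster, at 605 CPM (586 to 625) in WT and 571 (549 to 594) in KO. In the second mid-stage round cluster it was at 67.2 and 62.0 CPM. Dnah17, the other sperm outer arm heavy chain, was at 65.2 and 71.6 CPM in the same late spermatocyte-like cluster. Over germ cells the log2 ratio of KO to WT was -0.06 for Dnah8 and 0.11 for Dnah17.

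The outer arm heavy chains known from motile cilia were low or late. Dnah5 had 202 WT and 217 KO UMIs in germ cells and was highest in the second mid-stage cluster, at 9.08 and 9.15 CPM. Dnah11 had 20 WT and 47 KO UMIs, under the minimum of 100 together. Dnah9 was postmeiotic: it had 1 UMI in the second late spermatocyte-like cluster in WT and 3 in KO, and was highest in the first mid-stage cluster, at 49.9 CPM (45.5 to 54.5) in WT and 32.4 (28.7 to 36.6) in KO.

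Most of the remaining heavy chains were meiotic, and Dnah3 and Dnah10 were not. Dnah14 was highest in the second late spermatocyte-like cluster, at 306 CPM in WT and 349 in KO. Dnah1, Dnah2, Dnah12 and the Dnah7 copies, all inner arm heavy chains, were highest in late spermatocyte-like cells too, Dnah2 at 32.7 and 33.0 CPM in the first of those clusters. Dnah10, an inner arm heavy chain, was highest in the first early-stage round cluster, at 54.8 and 56.9 CPM. Dnah3, also of the inner arms, stood at 4.09 CPM (26 UMIs) in the second late spermatocyte-like cluster of WT and 240 in the second early-stage round cluster, a 58.7-fold rise (39.9 to 90.1), and at 2.09 and 212 CPM in KO, a rise of 101-fold (53.3 to 222). It was highest in the first mid-stage cluster, at 296 and 266 CPM.

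The intermediate and light chains, which anchor and regulate the arms, were split by role. The outer arm intermediate chains Dnaic1 and Dnaic2 were meiotic. Dnaic1 was highest in the second late spermatocyte-like cluster, at 121 CPM in WT and 113 in KO. In WT, Dnaic2 was at 26.4 CPM in the first late spermatocyte-like cluster, 87.0 in the second and 12.4 in the second early-stage round cluster, and in KO at 18.4, 81.5 and 12.4.

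The light chains came later. Dnal1, an outer arm light chain, was highest in early-stage round spermatid-like cells, at 158 CPM in WT and 162 in KO. Dnal4, a light chain, was at 274 and 268 CPM in the first early-stage cluster and at 2.49 and 1.28 in the first elongating cluster. Dnali1, a light intermediate chain of the inner arms, was highest in the first mid-stage cluster (294 and 302 CPM) and was still at 221 and 262 CPM in the first elongating cluster. Its level in the last elongating cluster was 28.9% of its highest in WT and 38.6% in KO.

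The radial spoke genes ran from meiotic members to the one member whose class was elongating cells. Rsph1, a spoke head protein, had the most UMIs of the family (38058 in WT and 34032 in KO) and was highest in the first late spermatocyte-like cluster, at 1992 CPM (1954 to 2032) and 1976 (1938 to 2015). The head protein Rsph9 was highest in the second early-stage round cluster, at 329 CPM in WT and 284 in KO. Rsph6a, the spoke head paralogue of sperm, had 3432 WT and 2573 KO UMIs, and its ciliary paralogue Rsph4a had 7 and 4. Rsph10b, a spoke head protein, was highest in the elongating clusters: it was at 13.7 CPM in the second late spermatocyte-like cluster of WT and 46.8 in the second elongating cluster, and at 8.83 and 43.9 in KO. The stalk protein gene Rsph3b had a second high level at the end. In WT it was at 45.7 CPM in the second late spermatocyte-like cluster, 7.90 in the second mid-stage and 27.6 in the last elongating cluster. In KO it was at 34.9, 12.8 and 36.9 CPM, so that the last elongating cluster was its highest single cluster there. Rsph3a and Rsph3b are close copies, so the division of reads between them is uncertain.

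The 3 CFAP genes with the most UMIs were postmeiotic. Cfap36 had 73019 WT and 59754 KO UMIs and was highest in the first early-stage round cluster, at 2150 CPM (2117 to 2183) and 2085 (2049 to 2121). Cfap206, a protein at the base of a radial spoke, was highest in the second early-stage cluster, at 954 CPM in WT and 967 in KO. Cfap126, known for basal body positioning in ciliated cells, was at 747 and 661 CPM there. The 10 meiotic CFAP genes were Cfap20, Cfap43, Cfap46, Cfap57, Cfap65, Cfap70, Cfap73, Cfap74, Cfap97 and Cfap99. Cfap97 had the most UMIs of these and was at 1006 CPM in WT and 1061 in KO in the second late spermatocyte-like cluster. The 16 postmeiotic ones were, beside the 3 above, Cfap44, Cfap45, Cfap52, Cfap53, Cfap54, Cfap58, Cfap61, Cfap69, Cfap77, Cfap100, Cfap157, Cfap161 and Cfap221.

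**Figure D3:**
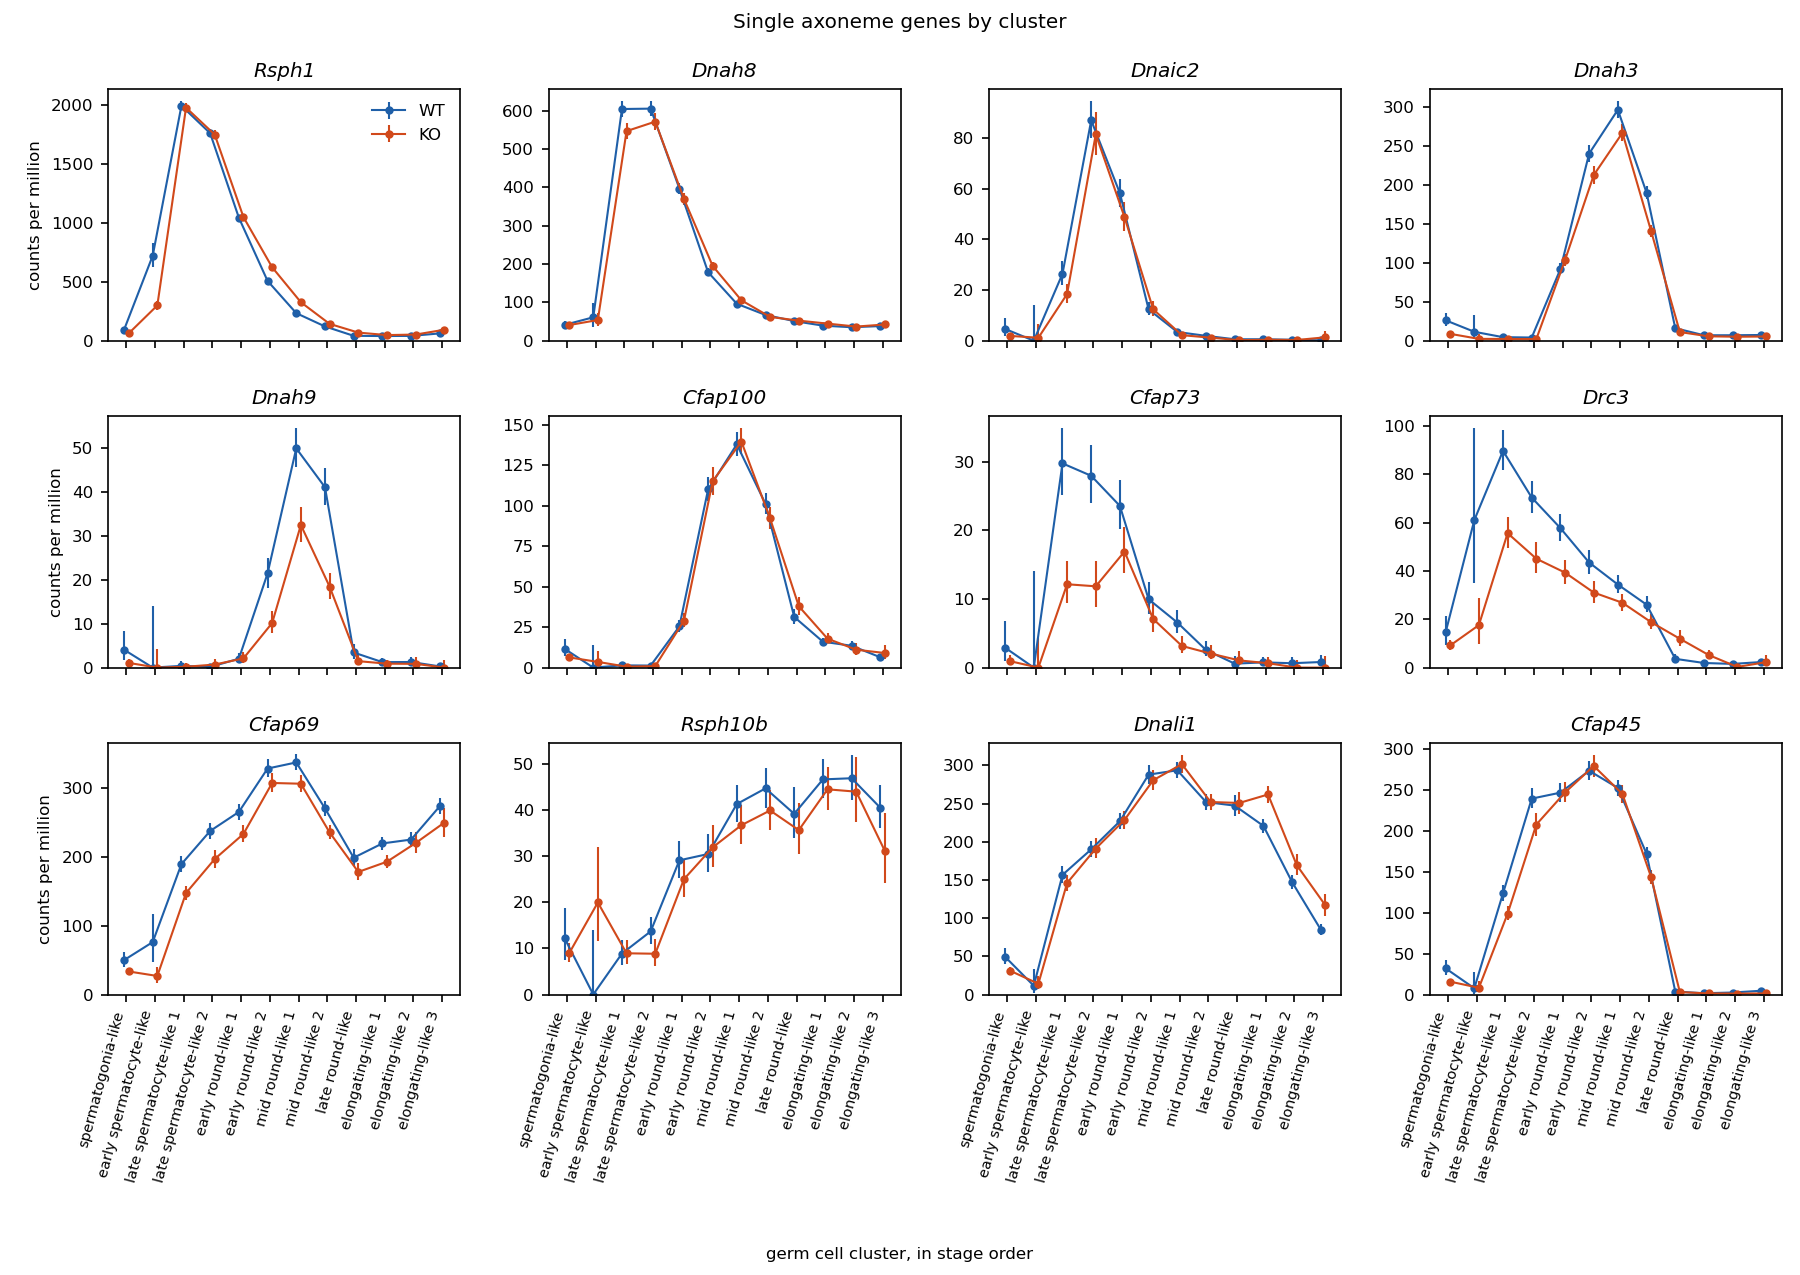
Level in CPM (vertical axis, own scale in each panel) of 12 members across the germ cell clusters in stage order (horizontal axis) in WT and KO, with exact 95% Poisson intervals as bars. Rsph1, Dnah8 and Dnaic2 were highest in late spermatocyte-like cells, and Dnah3, Dnah9 and Cfap100 after meiosis. Cfap69 and Rsph10b stayed high in elongating cells, and Dnali1 in the first elongating cluster.

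From the second late spermatocyte-like to the second early-stage round cluster, 3 members rose over 10-fold in both libraries. Beside Dnah3 these were Cfap100 and Cfap77. Cfap100 went from 1.26 to 110 CPM in WT (8 and 817 UMIs) and from 0.929 to 115 in KO (4 and 715 UMIs). Cfap77, a protein inside the doublet wall, went from 0.786 to 89.1 CPM in WT and from 2.56 to 70.7 in KO. Among all genes with enough UMIs, 17.4% rose as much in WT and 17.6% in KO, against 4 of 54 and 3 of 51 members, so such a rise was no rule among members. In 14 members the 2 clusters lay within 1.5-fold in both libraries, among them Cfap36, Cfap206, Dnah1 and Rsph9. By library this held for 29.6% of the members in WT and 37.3% in KO, beside 29.8% and 33.3% of all genes.

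Cfap73 and Cfap100, whose algal relatives form one complex that ties the inner arms to the doublet, ran at different times. Cfap73 was highest in late spermatocyte-like cells of WT (29.8 and 28.0 CPM), where Cfap100 was at 1.38 and 1.26. In the first mid-stage cluster Cfap100 reached 138 CPM in WT (131 to 145) and 140 in KO (132 to 148).

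At the end of the round stage, from the second mid-stage to the late-stage cluster, 5 members fell over 10-fold in both libraries. Cfap36 went from 800 to 24.4 CPM in WT and from 586 to 24.1 in KO. Cfap45, a protein inside the doublet, went from 172 to 3.63 and from 143 to 2.93 CPM. Cfap53, Dnah3 and Dnah9 were the other 3. This was 11.1% of the members in each library, beside 8.3% of all genes in WT and 6.0% in KO.

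At this step 7 of 45 members lay within 1.5-fold in WT and 9 of 45 in KO, beside 36.6% and 41.3% of all genes. Those within 1.5-fold in both libraries were Cfap69, Dnah17, Dnah7a, Dnah8, Dnali1 and Rsph10b. Cfap69, a central pair protein whose loss shortens the sperm tail, was highest at 337.8 CPM in the first mid-stage cluster of WT and still at 274 (262 to 286) in the last elongating cluster. That is 81.1% of its highest level in WT and 81.3% in KO. Rsph10b kept 86.3% and 69.9%.

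Between WT and KO most members differed little. Over pooled germ cells 0 of 55 members were higher in KO, where 33.3% of all genes were called higher, and 2 were lower, where 5.60% of all genes were. The median log2 ratio was -0.02 over the members and 0.26 over all genes, and relative to the median of all genes 4 members were lower, Cfap61, Cfap73, Dnah9 and Drc3, where 12.6% of all genes were. Intervals lay below 0 in 24 members, above 0 in 13 and around 0 in 18. Pooled sums mix clusters in the proportions each library held, so each germ cell cluster was also given equal weight. Then 0 of 55 members were higher (11.9% of all genes), 3 were lower (4.84%), namely Cfap73, Dnah9 and Drc3, and the median was -0.03 beside 0.06 over all genes. In that comparison 50 of 55 members lay within 0.3 of 0, and Dnah1 was the highest at 0.29 (3297 WT and 3576 KO UMIs, 0.36 pooled). By family the equal weight ratios ran from -0.87 to 0.29 in heavy chains, -0.20 to 0.05 in intermediate and light chains, -0.93 to 0.22 in CFAP genes, -0.20 to 0.05 in radial spoke genes and -0.63 to 0.13 in regulatory complex genes.

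**Figure D4:**
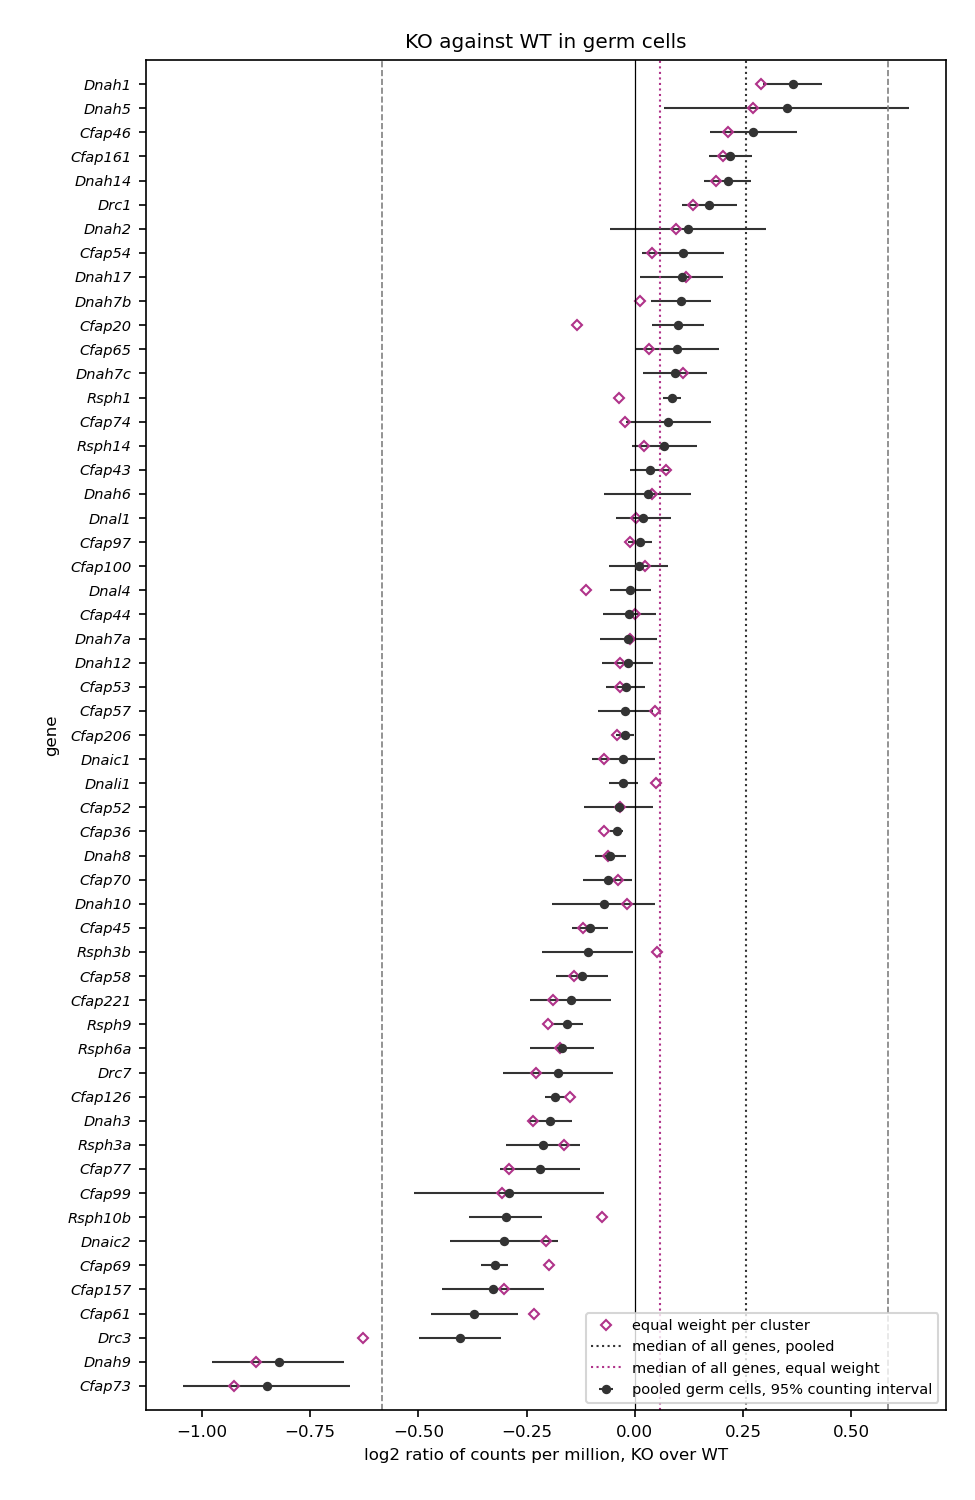
Log2 ratio of KO to WT level for each member with at least 100 UMIs (one row each, ordered by the pooled ratio), pooled over germ cells with its exact 95% interval (points and bars) and with equal weight per germ cell cluster (diamonds), with dashed lines at the 1.5-fold limits and dotted lines at the medians of all genes. Cfap73 and Dnah9 lie beyond the lower limit on both measures and Drc3 with equal weight alone, and no member lies beyond the upper limit.

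Cfap73 was lower in KO in its own stages. It had 695 UMIs in WT and 325 in KO germ cells, a log2 ratio of -0.85 (-1.04 to -0.66), and -0.93 with equal weight. In the late spermatocyte-like clusters it was at 29.8 CPM (25.2 to 34.9) and 28.0 (24.01 to 32.4) in WT and at 12.2 (9.36 to 15.5) and 11.9 (8.82 to 15.6) in KO, so that the libraries' intervals were apart. In the first early-stage round cluster the levels were 23.6 and 16.9 CPM, a log2 ratio of -0.48. Cfap73 lies on chromosome 5 from 120628335 to 120634235 on the minus strand of GRCm38 and overlaps Ddx54 on the other strand. Whether reads were counted by strand is not given in the sources used here, and reads of such a pair may not be told apart.

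Dnah9 was lower in round spermatid-like cells. It had 1104 UMIs in WT and 526 in KO germ cells, a log2 ratio of -0.82 (-0.98 to -0.67), and -0.87 with equal weight. In the second early-stage cluster it was at 21.4 CPM in WT and 10.1 in KO, in the first mid-stage at 49.9 and 32.4, and in the second mid-stage at 41.0 and 18.4. In each of these the intervals were apart, and the log2 ratios were -1.08, -0.62 and -1.15. Stage markers differed between the libraries inside these clusters as well. Mid-stage markers were at 12810, 20910 and 19760 CPM in WT and at 11170, 19420 and 17560 in KO. Late-stage round markers were at 8014, 16170 and 28700 CPM in WT and at 7222, 17580 and 34780 in KO. The part of such differences in the Dnah9 ratios was not tested. Dnah9 lies on chromosome 11 from 65831282 to 66168551 on the minus strand, opposite Gm12296. Dnah3, which rose at the same step, had a log2 ratio of -0.20. At a CPM ratio of 2 neither Cfap73 nor Dnah9 was called pooled or with equal weight, though both passed that ratio in single clusters. Neither was among the 35 members that 25% or more of the WT or KO germ cells held with a UMI.

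Drc3, a regulatory complex subunit on chromosome 11 from 60353329 to 60394341, passed the size rule with equal weight and, pooled, only relative to the median of all genes (-0.66). Alkbh5 lies on chromosome 11 too, and how far each member there lies from it was not worked out. Dnah9 and members not called over germ cells, such as Dnah17 (from 118021723) and Cfap36 (from 29221532), lie elsewhere on that chromosome. The part of this shared chromosome, or of closeness to Alkbh5, in the ratios was not tested. Drc3 had 2350 UMIs in WT and 1497 in KO germ cells, with log2 ratios of -0.40 pooled and -0.63 with equal weight. The equal weight call ended at resolution 0.8, with cells thinned to 5729 UMIs, and without the spermatogonia-like and early spermatocyte-like clusters. In the late spermatocyte-like clusters it was at 89.7 (81.6 to 98.3) and 70.4 CPM (64.0 to 77.2) in WT and at 55.6 (49.5 to 62.4) and 45.1 (39.0 to 51.9) in KO. In the late-stage round cluster the order was the other way, with 3.63 CPM (19 UMIs) in WT and 11.9 (57 UMIs) in KO, under the minimum of 100 UMIs. The other regulatory complex members, Drc1 and Drc7, had equal weight ratios of 0.13 and -0.23.

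Taken cluster by cluster, 433 pairs of a member and a germ cell cluster had at least 100 UMIs. In KO, 9 of them were higher (2.08%, beside 8.93% of pairs of all genes) and 32 lower (7.39%, beside 7.13%). Outside the spermatogonia-like and early spermatocyte-like clusters 19 of 404 pairs were lower, beside 6.31% of pairs of all genes. Cfap70, which binds the outer arms, was lower from the second mid-stage to the second elongating cluster, with log2 ratios of -0.62, -0.83, -1.21 and -1.23, whereas at its highest, in the second late spermatocyte-like cluster, it stood at 219.8 CPM in WT and 224 in KO. Cfap61, a protein of the spoke base, was lower in the 3 elongating clusters (-0.92, -0.69 and -0.60), in the first of them at 25.4 CPM in WT and 13.4 in KO. Cfap58, needed for the tail's midpiece, was lower in the first late spermatocyte-like cluster and the last 2 elongating clusters (-0.60, -1.10 and -0.82).

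The higher pairs were few and sat in clusters where the member was low. Dnah14 was higher in spermatogonia-like, late-stage round and first elongating cells (0.90, 1.07 and 0.69), with 6.68 CPM in WT and 14.03 in KO in the late-stage cluster. Dnah7b was higher in the late-stage round (0.76) and first elongating cluster (0.71). Cfap46, a central pair protein, was higher in the second early-stage cluster (0.70) and Rsph3b in the second mid-stage (0.69). Rsph1 alone was called both ways. Its early spermatocyte-like levels were 721 CPM in WT and 299 in KO, a log2 ratio of -1.27 (-1.55 to -0.99). In the late-stage round cluster it was at 41.4 and 68.9 CPM, a ratio of 0.73 (0.48 to 0.99), and in the last elongating cluster at 61.9 and 93.2, a ratio of 0.59 (0.35 to 0.83).

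Markers of other cell types and mitochondrially encoded RNA were read in these clusters too. The 15 Leydig markers summed to 44.8 CPM in WT and 234 in KO germ cells with none at 0, the 15 Sertoli markers to 10.4 and 70.8 with 1 at 0 in each library, and mitochondrially encoded transcripts to 6425 and 15420 CPM, so that these sums were higher in KO. The 15 macrophage markers summed to 840.6 CPM in WT and 749.6 in KO with none at 0. The part of such RNA in the results was not tested. With totals that leave out mitochondrially encoded and ribosomal protein genes, Cfap73 and Dnah9 were again the 2 members called lower.

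In spermatogonia-like cells, which precede the members' main stages, 11 of 25 members were lower in KO, beside 13.3% of all genes, and 1 was higher, beside 8.01%. The 11 were Cfap126, Cfap206, Cfap36, Cfap43, Cfap45, Cfap53, Cfap58, Dnah3, Dnal1, Dnali1 and Drc3. The RNA was uneven over cells: the tenth of the cells with the most member UMIs held 64.0% of them in WT and 55.3% in KO, and the median cell had 5.52 and 5.28 member UMIs per 10000. Scrublet, which looks for barcodes that resemble 2 cells at once, called 14.6% of these cells doublets in WT and 10.02% in KO, and cells called doublets were kept. Without them the members summed to 658 CPM in WT and 657.8 in KO, and 2 of 13 members were lower and 2 higher, beside 9.28% and 7.41% of all genes. Round spermatid markers were themselves higher in the WT cells of this cluster, those of the mid stage at 1866 CPM in WT and 675.5 in KO, and those of elongating cells at 28830 and 16650. The part of such RNA in the result was not tested beyond the removal of doublets.

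Members were also read in somatic cells. In Leydig-like cells (94 in WT and 1180 in KO), which have no motile tail, the members summed to 1084 CPM in WT and 617.5 in KO, and 11 of 17 members were lower in KO, beside 16.3% of all genes. The RNA was uneven here too. The tenth of the cells with the most member UMIs, 9 in WT and 118 in KO, held 66.0% and 56.3% of them. Without cells called doublets the sums were 924.6 CPM in WT and 461.9 in KO, and 11 of 13 members were lower, beside 16.4% of all genes. Germ markers of late spermatocytes and every later stage were also lower in KO there. Those of mid-stage round spermatids were at 1865 CPM in WT and 514.3 in KO, and those of elongating cells at 15740 and 11560. The markers of spermatogonia (147.2 and 217.6 CPM) and early spermatocytes (150.2 and 273.3) were higher in KO. To set a scale, the 20 transcripts with the most UMIs in the elongating clusters were read there as well. They were chosen by abundance alone, so some may also be made by other cells. Their median share of the germ cell level was 16.7% in WT and 15.5% in KO. The single transcripts ran from 8.80% to 471% in WT and from 9.13% to 311% in KO, so the median is a rough scale.

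Dnah2 and Dnah9 lay furthest above that median among the members in Leydig-like cells of both libraries. Single transcripts of the 20 also lay many times above it. Dnah2, an inner arm heavy chain, was at 42.5 CPM (43 UMIs) in WT and 15.9 (164 UMIs) in KO, 37.5 and 13.8 times the level that the 20 transcripts would give. The log2 ratio was -1.42 (-1.91 to -0.90), and -1.38 without doublets. Dnah9 was at 19.8 and 13.8 CPM, or 8.43 and 11.2 times that level, and the interval of its log2 ratio, -0.52 (-1.20 to 0.23), held 0. Dnah2os, an antisense transcript of Dnah2 that is no member, had 12 UMIs in WT and 165 in KO Leydig-like cells (11.9 and 15.99 CPM) but 1 and 4 over all germ cells. As strand use in counting is not given in the sources used here, reads of Dnah2 and Dnah2os may not be told apart. In KO, Rsph4a was at 10.3 times that level from 1 UMI. In Sertoli-like cells 4 of 11 members were lower, beside 17.2% of all genes, and 1 was higher, beside 61.3%. The median share of the 20 transcripts there was 115.4% of the germ cell level in WT and 45.2% in KO.

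**Figure D5:**
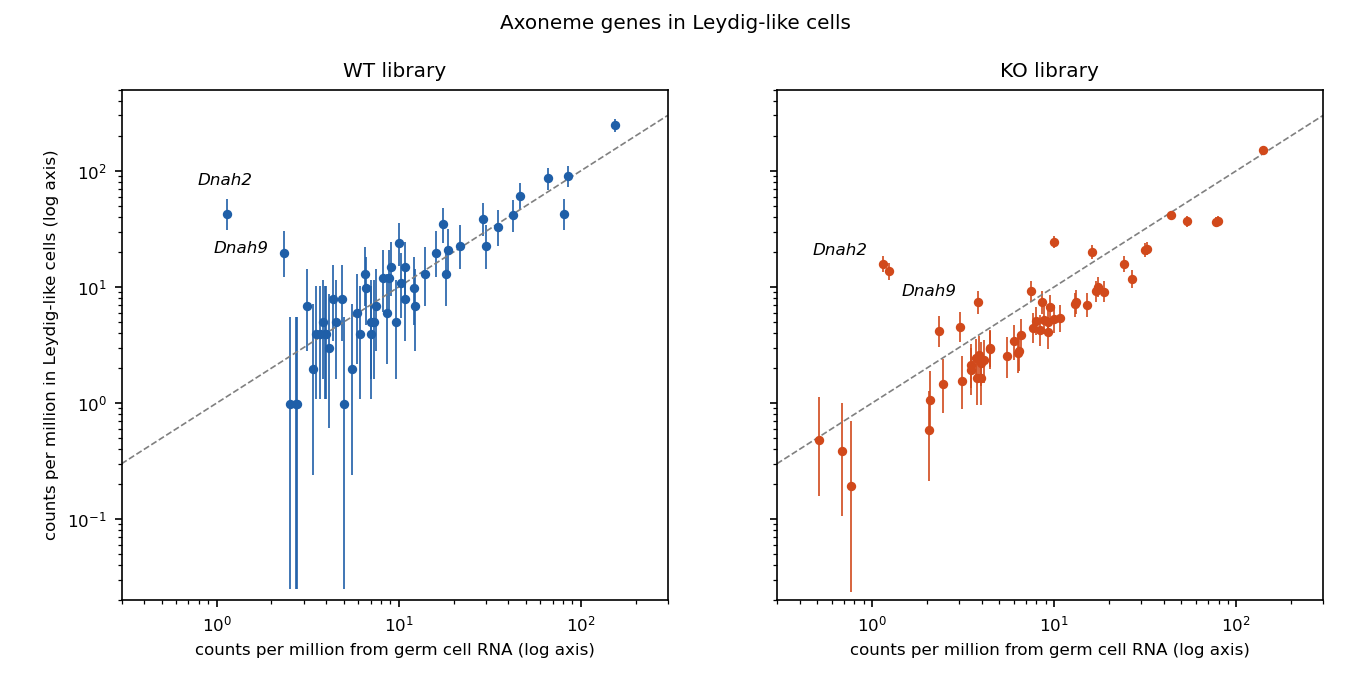
Level of each member in Leydig-like cells in CPM (vertical log axis) against the level that the median share of the 20 transcripts with the most UMIs in the elongating clusters would give (horizontal log axis), for WT and KO, with exact 95% Poisson intervals as bars and equality as a dashed line. Dnah2 lies 37.5 times above the line in WT and 13.8 times in KO, and Dnah9 8.43 and 11.2 times.

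Other genes of the axoneme and its surroundings, were taken from 11 lists written by hand. Pooled over germ cells, 20 of their 135 tested genes were higher in KO, beside 33.3% of all genes. Lower was 1, beside 5.60% of all genes, namely Ift172 of intraflagellar transport, at a log2 ratio of -0.75. With equal weight per cluster 3 were higher and 0 lower, beside 11.9% and 4.84% of all genes. Of the 20, 8 were the 8 tested mitochondrially encoded transcripts, with a median log2 ratio of 1.44 pooled and 0.15 with equal weight. Higher were 40 of 87 pairs of such a transcript and a cluster, beside 8.93% of pairs of all genes. With equal weight, of 13 axonemal dynein assembly factors, which fold the arms in the cytoplasm, 1 was higher, Dnaaf5, at a log2 ratio of 1.35 from 117 WT and 301 KO UMIs. Of 16 doublet inner proteins and tektins 1 was higher, Efhc2 (0.83, from 1673 WT and 2757 KO UMIs), and of 17 cytoplasmic and transport dynein genes 1 was higher, Dynlt3 (0.83, from 5929 and 8890). With equal weight none passed among 8 dynein docking genes, 8 other regulatory complex genes, 8 central pair genes, 10 other radial spoke genes, 21 intraflagellar transport genes, 12 regulators of cilium or spermatid genes, 14 fibrous sheath and outer dense fibre genes and 8 mitochondrially encoded transcripts. By stage, 15 of 16 doublet inner proteins and tektins were highest in round spermatid-like cells in WT, while 7 of 14 fibrous sheath and outer dense fibre genes were highest in elongating cells, where 1 of 55 members was.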

How the data were processed

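Single-cell RNA libraries were made by the authors with the GEXSCOPE kit, and the deposited values are counts, the number of UMIs per gene and barcode, without normalization. The submitters' processing notes name the aligner STAR (2.5.3a) and the counter featureCounts (1.6.2). The build in the methods is the human GRCh38, yet symbols are of the mouse, so positions came from GENCODE vM21 on GRCm38 by symbol and promoters from RefSeq.

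Cells with over 500 genes, which all barcodes had, were integrated by Seurat 5.3.0 (R 4.3.3, Matrix 1.6.5; 2000 variable features less 5 members, 20 anchor dimensions, 30 principal components, resolution 0.3, seed 1). A marker was detected with a UMI in at least 10% of a cluster's cells and at 2 times the level of other cells, and 3 were needed for a name. Scrublet in scanpy 1.11.5 called 243 WT (4.22%) and 348 KO barcodes (4.96%) doublets, which were kept. Sums and exact conditional intervals of ratios came from scipy 1.17.1, pandas 2.3.3 and numpy 2.4.6 under Python 3.11.15, and the scripts were tested on simulated data. Members and lists were chosen with earlier results of these data known. Named with values were the 3 most abundant members of each family, members called between the libraries, called both ways, of differing peak class or over 5 times the germ RNA scale in Leydig-like cells, those under the minimum, and called list genes; other members were singled out after their values were seen. Alternatives changed clustering, doublets, depth, totals, weights, centring, the minimum, the fold and the call rule.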

Additional observations from a re-analysis of the deposited data

Results flagged for a closer look

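Rsph1 was called in opposite directions in different stages. Its log2 ratio of KO to WT was -1.27 in early spermatocyte-like cells, the cluster with the fewest germ cells, and 0.73 in the late-stage round and 0.59 in the last elongating cluster. The difference between these stages was not tested, as each stage had 1 library per genotype. In the early spermatocyte-like cluster, late spermatocyte markers were at 9480 CPM in WT and 7382 in KO. Markers of late-stage round (873.6 and 759.8 CPM) and elongating cells (11150 and 5269) were also higher in WT there, and those of the other germ cell stages higher in KO. The part of this mix in the Rsph1 ratio was not tested.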

How the results depend on the processing

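Of 101 values compared over the alternatives 84 stayed, 17 moved and 0 reversed, where a count within 1.5 times, or a median within 0.0696 on the log2 scale, counts as staying. With all round clusters summed into 1 class, an alternative chosen after seeing the data, the 25 members highest in round stages became 16 and the 29 in late spermatocyte-like cells 38. Under the others these ranged from 24 to 28 and from 26 to 30. No paired analysis was possible because each genotype had 1 library. Members called higher in pooled germ cells went from 0 to 1 (Dnah11) with a minimum of 50 UMIs. Members called lower went from 2 to 4 relative to the median of all genes, and to 0 with a CPM ratio of at least 2 and to 0 with a detection criterion (a UMI in 25% or more of the cells and a difference of 0.25 on the natural log scale, the second chosen here), which left out Cfap73 and Dnah9. The 3 members lower with equal weight per cluster became 2 (Cfap73 and Dnah9) at resolution 0.8, with thinned cells, and without the spermatogonia-like and early spermatocyte-like clusters, and 0 with a ratio of at least 2. The 0 higher became 1 with the libraries merged (Dnah5) and with a minimum of 50 UMIs (Dnah11). The median log2 ratio of -0.02 became -0.28 relative to the median of all genes and 0.12 without the spermatogonia-like and early spermatocyte-like clusters, an alternative chosen after seeing the data. The 9 higher pairs of member and cluster became 23 with the libraries merged without integration, 5 with cells thinned to 5729 UMIs (362 WT and 914 KO cells left out), 17 with a minimum of 50 UMIs, 1 with a ratio of at least 2 and 0 with the detection criterion. The 32 lower pairs became 18 with thinned cells, 17 with a minimum of 200 UMIs, 14 with a ratio of at least 2, 6 with the detection criterion and 19 without the first pair of clusters, and 22 to 46 otherwise. Merged without integration, mid-stage round spermatid-like cells split by library, and the cause was not tested. Fewer calls with a higher minimum, fold or thinning follow from their construction. With 1 library per genotype, intervals cover counting error only. In the call rule a count of 0 was set to 3 and other counts were kept, and levels from so few counts are not safely told apart from 0.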
